A study of Homo sapiens with 42 samples.

Results

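The ends described here are 3′ ends of transcripts that GENCODE 29 classes as retained_intron, read in MDA-MB-231 breast cancer cells beside at least 1 protein-coding end of the same gene. An entry of a deposited table was a member when it and a protein_coding entry of its gene each had a mean of at least 10 reads over the libraries of that table. This gave 65 of 94924 entries (63 genes) in the table of LM2 and Par cells, 78 (77 genes) in the knockdown table and 50 (49 genes) in the T4 table. In all, 85 ends of 83 genes were members somewhere and 46 in all 3 tables. A further 759, 810 and 720 read retained-intron entries had no such protein-coding partner and are not described further. Just inside the limit in the LM2 and Par table were entries of SMC4 (mean 10.3 reads) and RPS7 (10.4), and just outside were another entry of SMC4 (9.83) and one of MDC1 (8.92). Members were chosen by their mean reads, so their levels are given as a description with no test.

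MDA-MB-231 is an established line from a breast cancer. Par cells (poorly metastatic, per the labels) and LM2 cells (a subline highly metastatic to lungs) were each split into cytoplasmic and nuclear RNA. Poorly metastatic cells labelled as HNRNPC knockdown (gHNRNPC) or control (gCTRL) were split in the same way. Total RNA of LM2 cells was taken 6, 24 or 72 h from the start of treatment with 3 µM of a compound called T4, or with its DMSO vehicle. The agent was present for 6 h, and later harvests followed a change of medium. Each of the 14 groups had 3 libraries, and the 42 libraries held 798032 to 2304686 reads. Whether replicates were grown as separate cultures is not stated, so the tests weigh differences against the spread of these libraries only, part or all of which can be technical. The knockdown target HNRNPC was at 87.3 to 120 CPM (counts scaled to the total of the library) in gHNRNPC cytoplasm against 444 to 526 in gCTRL cytoplasm, and at 81.3 to 111 against 422 to 677 in nuclei. The line markers VIM, CD44, AXL and CAV1 were read in every table, though VIM fell to 20.5 CPM in a T4 library at 6 h. PGR was at 0 and ESR1 at most at 0.804 CPM. Of the markers of other cells, PTPRC and PECAM1 were at most at 0.887 and 0.826 CPM. CD68 reached 119 CPM in gHNRNPC nuclei and 64.6 in Par nuclei. COL1A1 reached 63.7 CPM in LM2 nuclei and at most 0.910 in Par nuclei. The nuclear RNA MALAT1 was higher in nuclear libraries (30.5 to 72.1 CPM in gCTRL nuclei, 4.57 to 5.88 in cytoplasm). Of the other nuclear RNAs looked up, NEAT1 was at most at 1.83 CPM and KCNQ1OT1 at 0 in every library. RPLP0, a ribosomal protein gene, was higher in gCTRL cytoplasm (12350.5 to 14716.7 against 3208.3 to 4377.03 CPM). Mitochondrial MT-ND1 was also higher in nuclei (2440 to 2878 against 21.4 to 60.3 CPM in gCTRL), so the nuclear libraries also hold organelle RNA. The part of this organelle RNA in the results was not tested.

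Introns are removed from most messenger RNA before it leaves the nucleus, and transcripts that keep one are often held there or degraded after export. A gene can also end its RNA at several places, where a cleavage complex reads a signal such as AATAAA and a poly(A) tail is added. HNRNPC encodes an abundant nuclear protein that binds uridine-rich RNA and is known for its effects on splicing and on the choice of poly(A) site. QuantSeq REV, the assay used, primes on adenine stretches and reads only the last bases of an RNA, so it shows which end was used and not whether an upstream intron was kept.

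The class name was therefore checked against the position of each end. Of the 65, 78 and 50 members, 18, 27 and 15 ended within 100 bases of an annotated protein-coding end of the same gene (called shared ends below). Reads there cannot be assigned to the retained-intron transcript by position alone. Only 6, 7 and 3 ends lay in an intron of at least 1 protein-coding transcript of the gene and in no exon of any. Relative to the most read protein-coding partner in the LM2 and Par table, 25 ends lay in its 3′ untranslated exon, 24 in a coding exon, 8 in an intron and 8 beyond its end. In the knockdown table the corresponding numbers were 36, 24, 8 and 10. The members are therefore described as ends of entries with this class name, and not as measured intron retention.

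The ends on which the results turn are shown as the last 30 bases of the transcript (GENCODE 29, GRCh38), 5′ to 3′, with a poly(A) signal hexamer in capitals. CIRBP-242 ends at chr19:1274778-1274807 (plus strand) and OAZ2-202 at chr15:64687576-64687605 (minus strand), each 3 bases from a protein-coding end and downstream of the most read partner. PRMT2-212 ends at chr21:46661241-46661270 (plus), in intron 8 of PRMT2-206.
CIRBP-242: attcgAATAAAgggccacgtgtgcacccag
OAZ2-202: ttactgtgtcAATAAActgatttaaagttg
PRMT2-212: tcaaaatcaAATAAAttatatttcgtttca
All 3 hold AATAAA within these bases. A second kind of end had no such hexamer but ran into adenines. NFATC3-204 ends at chr16:68192199-68192228 (plus), in intron 9 of NFATC3-202, and LIN52-201 at chr14:74200409-74200438 (plus), in the last exon of LIN52-205.
NFATC3-204: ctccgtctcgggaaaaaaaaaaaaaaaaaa
LIN52-201: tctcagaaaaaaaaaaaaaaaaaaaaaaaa
For LSG1-207, whose end lies in coding exon 14 of LSG1-201, the adenines follow the end. The window chr3:194642093-194642122 (minus strand) is shown with the bases after the annotated end in capitals.
LSG1-207: caacagaaatAAAAAAGAAAAAAGTCGTAG

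These features were counted over all ends. AATAAA or ATTAAA was searched on the transcript strand in the last 50 bases, and an end with both was counted once. It was present at 29.2, 35.9 and 26.0% of members in the LM2 and Par, knockdown and T4 tables. Among shared ends it was at 55.6, 63.0 and 53.3%, and among the others (ends apart) at 19.1, 21.6 and 14.3%. Protein_coding entries with a mean of at least 10 held it at 78.3, 78.7 and 77.7%. Retained-intron entries of genes with a read protein-coding end, but with a mean under 1 read themselves, held it at 1.11, 1.15 and 1.43%. A run of 6 or more adenines in the last 30 bases was present at 25.5, 27.5 and 25.7% of ends apart, 9.83, 9.37 and 10.1% of read protein_coding entries, and 0.943, 0.767 and 0.951% of the unread retained-intron entries. Where the end lay in an exon of the partner, the next 10 bases were adenine-rich (6 in a row or 7 of 10) at 11 of 36, 11 of 41 and 7 of 29 ends apart. In the unread entries it was 6 of 1001, 7 of 1119 and 7 of 891, and among read protein_coding ends that lie within another transcript's exon 20 of 76, 22 of 91 and 14 of 54. Read ends of both classes thus carried such adenines at higher shares than unread ends did. These are counts with no test, and how much priming on adenines within the RNA adds to the reads was not tested.

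**Figure D1:**
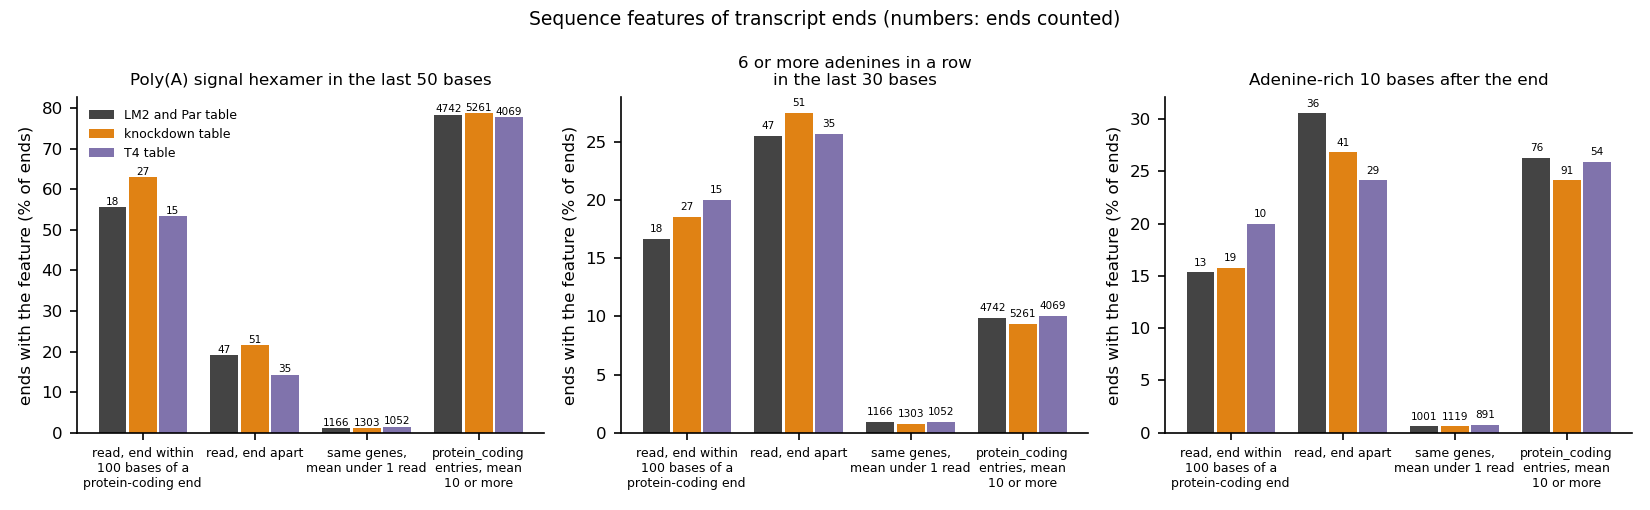
Percent of transcript ends with a poly(A) signal hexamer in the last 50 bases (left), 6 or more adenines in a row in the last 30 bases (middle) and adenine-rich bases after the end (right), for read retained-intron ends (shared with a protein-coding end or apart), unread ones of partnered genes, and read protein_coding entries. Colours are the 3 tables and the number over each bar is the count of ends; unread ends are at most at 1.43% in the left panel and read ends apart lie between 14.3 and 21.6%.

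The bases 50 to 31 before an end were searched in all GENCODE 29 transcripts on both strands. They occurred in 10 or more genes for 4 of 65, 5 of 78 and 4 of 50 members, among them ATP5MPL (1012 genes), LIN52 (144), EMC1 (35), NFATC3 and SRSF10 (13 each) and NBPF9 (12). In the knockdown table, 100% of the reads of LIN52, SRSF10, MLLT6, RIOK3, BTN3A2, RPL9 and NBPF9 and 66.2% of those of ZNF276 stood in non-whole estimated values, which arise when reads match more than 1 sequence. Values of these ends are therefore uncertain. Among the ends named here, those of ROBO4, LSG1, PPP6R3, GALNT10, ZNF276, MLLT6, DYNC1H1, EMC1 and SMC4 lie under a gene on the opposite strand, those of RAD54L2, MON1B and DCAF11 under TEX264, SYCE1L and AL136295.3 on the same strand, and that of ISY1 under the read-through gene ISY1-RAB43.

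Members took a median of 37.6, 43.0 and 44.9% of the reads of their gene in the 3 tables, ranging from 0.632 to 98.3% in the LM2 and Par table. The end took over 50% of the gene in 25, 32 and 21 cases and under 10% in 11, 8 and 7. The most read member was DYNC1H1-204 of the cytoplasmic dynein heavy chain gene, with a mean of 999 reads in the LM2 and Par table and 98.3% of the gene's reads; its end is 6 bases from a protein-coding end. NCL-207, from the gene of nucleolin, had 290 reads. LIN52 (a subunit of the MuvB cell cycle complex), DCAF11, TMEM245, OAZ2, DCTN5, NFKBIA and LSG1 were also among the 10 most read.

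Summed over members, these ends held 38.3, 38.7 and 38.1% of host gene reads in the 3 LM2 cytoplasmic libraries and 32.4, 30.4 and 35.1% in Par cytoplasm. The LM2 libraries were all higher, and the same held without DYNC1H1 (35.1 to 36.0% against 28.5 to 32.5%). The median share over members did not separate them, at 37.1, 40.5 and 36.9% in LM2 and 37.1, 37.6 and 38.2% in Par cytoplasm, and for ends apart the group means of that median were 35.02 and 35.48%. In nuclei the sums were 34.7, 44.8 and 42.3% for LM2 and 35.6, 38.1 and 36.3% for Par, which overlapped. Without DYNC1H1 the nuclear means were below the cytoplasmic ones, 30.8 against 35.5% in LM2 and 29.6 against 30.5% in Par cells, so the order of the fractions in this sum turned on that gene. In the knockdown table, gCTRL cytoplasm had 51.4 ± 1.15% (SD, n = 3) and nuclei 59.0 ± 3.53%, and gHNRNPC had 49.2 ± 1.34% and 59.2 ± 2.61%. Without DYNC1H1 the 4 groups were at 49.4, 50.1, 46.9 and 50.9%. For ends apart, which leave out DYNC1H1 too, the nuclear sums were above the cytoplasmic ones in every library, with means of 38.4 against 31.1% in gCTRL and 38.0 against 30.4% in gHNRNPC. The median over members gave 44.4 against 46.5% in gCTRL and 43.6 against 38.2% in gHNRNPC, and entries with a mean of at least 50 gave 44.3 against 53.3% and 41.2 against 45.6%. The order of the fractions thus depended on how members were summarised. No test was made of these sums.

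**Figure D2:**
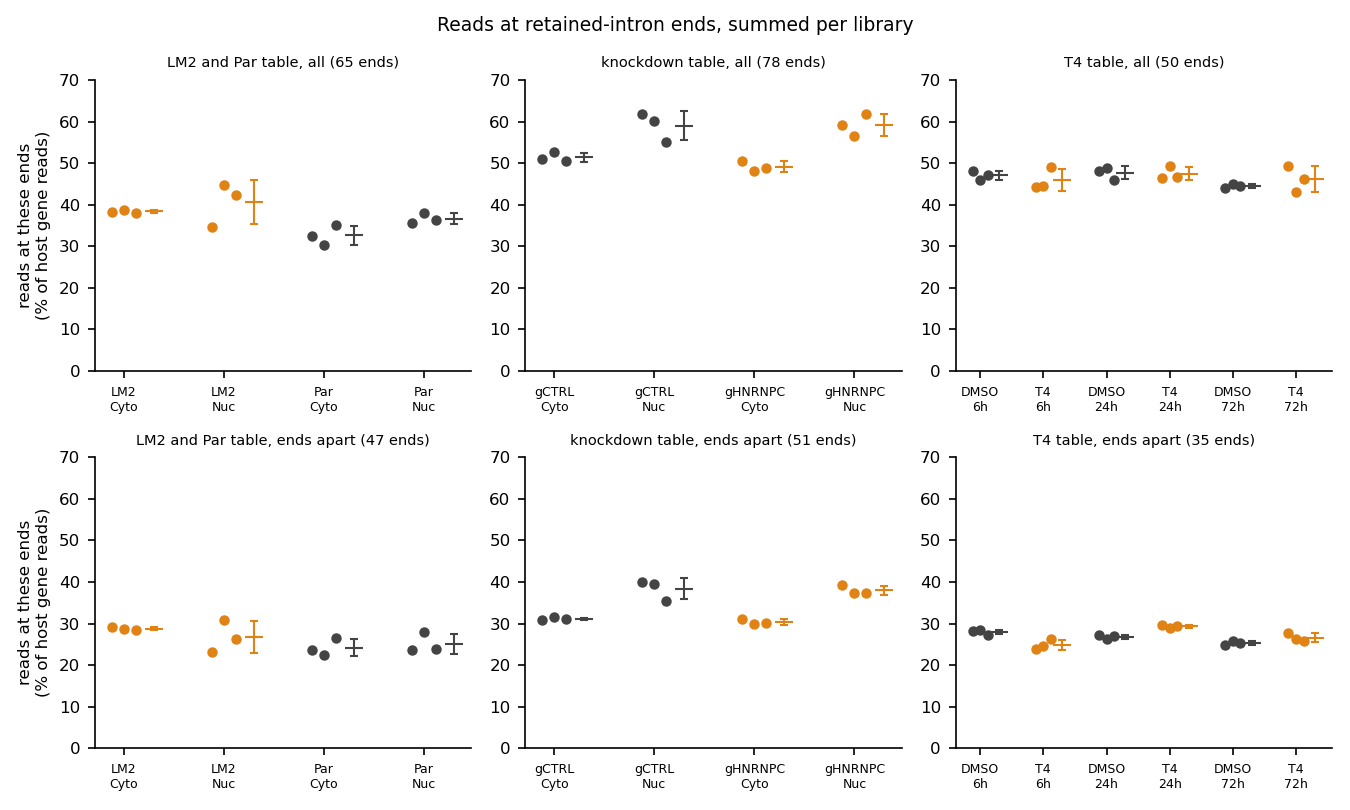
Reads at retained-intron ends as percent of all reads of their host genes, per library (points) with the group mean and SD (bar beside them), for all members of each table (top) and for ends more than 100 bases from any protein-coding end (bottom). LM2 cytoplasm lies above Par cytoplasm in all 3 libraries. For ends apart the T4 libraries lie above DMSO at 24 h (28.96 to 29.8% against 26.3 to 27.2%). At 6 h they lie below (23.8 to 26.3% against 27.4 to 28.4%). These sums were not tested.

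To ask which ends changed, the reads at each end were compared with the reads at all other ends of its gene, by an edgeR quasi-likelihood test over every end that could be tested (2514, 2774 and 1901 in the 3 tables). Changes are log2 changes of the odds of an end ± standard error. An end was called when its Benjamini-Hochberg adjusted p within the comparison was below 0.05. In these bulk libraries, fewer cells that use an end and less of its RNA per cell cannot be told apart.

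**Figure D3:**
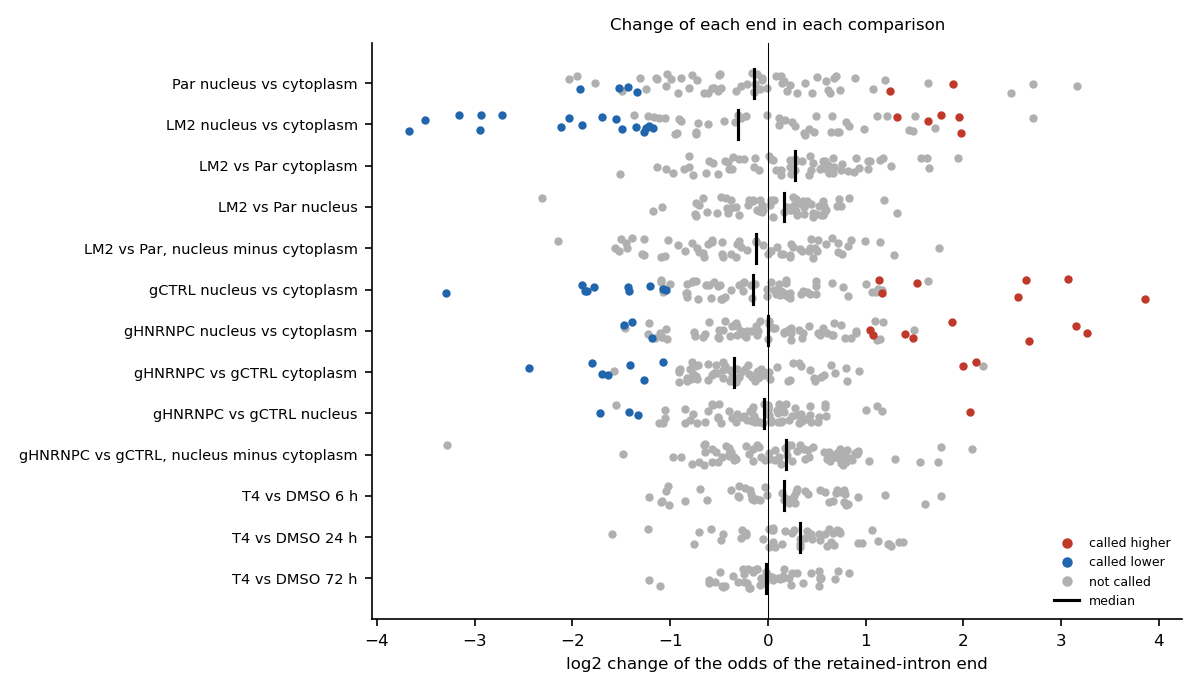
Log2 change of the odds of each retained-intron end (x axis) in each of the 13 comparisons (rows), with 65 points in the LM2 and Par rows, 78 in the knockdown rows and 50 in the T4 rows. Red and blue points were called higher or lower, and the black bar is the median; calls are found between fractions and after the knockdown, and in no T4 or LM2 against Par row.

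Between nucleus and cytoplasm, ends moved in both directions. In Par cells 2 members were called higher in the nucleus and 4 lower, where 9.43% of all ends were called, 4.38% higher and 5.05% lower. In LM2 cells it was 5 and 17, where 35.1% of all ends were called, 17.5% in each direction. In gCTRL cells it was 7 and 10, against 28.4% of all ends (13.8% higher, 14.6% lower), and in gHNRNPC cells 8 and 3, against 13.0% (6.38% higher, 6.67% lower). The members called made up 9.23, 33.8, 21.8 and 14.1% of members, near the shares of all ends. The libraries of the fractions did not overlap for 21, 27, 26 and 22 members, where this held for 34.6, 49.6, 43.6 and 30.8% of all ends. The median change of the members was −0.14, −0.31, −0.15 and 0.01 in the 4 comparisons, against −0.02, −0.01, 0.01 and −0.00 over all ends tested. The latter is held near 0, because a gain at 1 end of a gene is a loss at the others. The medians were −0.18, −0.28, −0.24 and −0.12 for position entries and −0.34, −0.14, −0.12 and −0.07 for processed_transcript entries. For nonsense_mediated_decay entries they were 0.02, −0.16, −0.09 and 0.07, and for protein_coding entries 0.12, 0.25, 0.19 and 0.11. Calls in Par cells rested on single libraries: none was made without cytoplasmic library 1 or 3, 2 without nuclear library 1 and 1 without nuclear library 3. The nuclear libraries numbered 2 of Par and LM2 deviated together from their groups (r = 0.69 across ends; 0.55 for those numbered 1 and 0.07 for those numbered 3), and without both of them 18 ends were called in Par (5 higher, 13 lower). Without LM2 cytoplasmic library 3, 14 were called in LM2, and without gCTRL nuclear library 3, 11 in gCTRL. Without gHNRNPC cytoplasmic library 3, or nuclear library 1 or 2, 6, 6 and 7 were called in gHNRNPC.

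CIRBP encodes the cold-inducible RNA-binding protein, and its end was called higher in the nucleus in all 4 comparisons. In gCTRL cells it took 11.2, 14.1 and 10.6% of the gene's reads in cytoplasm and 40.0, 46.0 and 46.6% in nuclei. The nuclear libraries were all above the cytoplasmic ones (2.56 ± 0.28, adjusted p = 1.3e-06). In LM2 cells the shares were 5.44, 10.8 and 8.44% against 25.1, 24.1 and 27.3% (1.97 ± 0.35, adjusted p = 0.0012). In Par cells they were 8.25, 10.8 and 7.67% against 23.2, 14.9 and 18.6% (1.25 ± 0.34, adjusted p = 0.039). This end lies 1635 bases beyond the end of the most read partner, CIRBP-215.

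OAZ2 encodes an antizyme that restrains polyamine synthesis, and its end, 909 bases beyond that of OAZ2-205, was called lower in the nucleus in all 4 comparisons. In LM2 cells it took 72.7, 71.3 and 73.8% in cytoplasm and 22.2, 26.4 and 35.8% in nuclei (−2.72 ± 0.38, adjusted p = 3.6e-04). In gCTRL cells the shares were 67.9, 75.1 and 67.9% against 36.1, 47.1 and 39.8% (−1.78 ± 0.30, adjusted p = 2.5e-04). No nuclear library reached a cytoplasmic one in either.

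DCTN5 encodes a subunit of dynactin. Its end lies in the 3′ untranslated exon of DCTN5-201, upstream of that transcript's end and 2501 bases from the nearest protein-coding end. It took 92.8, 97.2 and 94.0% of reads in gCTRL cytoplasm and 74.1, 61.0 and 59.1% in nuclei (−3.30 ± 0.43, adjusted p = 8.7e-06). In LM2 it was 91.5, 96.0 and 96.6% against 60.9, 86.5 and 66.3% (−2.95 ± 0.53, adjusted p = 0.0014), and in Par cells it was also called lower (−1.92 ± 0.48, adjusted p = 0.032). PPP6R3 encodes a regulatory subunit of protein phosphatase 6. Its end was at 33.7, 31.9 and 26.1% in LM2 cytoplasm and 4.26, 1.59 and 4.06% in nuclei (−3.67 ± 0.42, adjusted p = 9.5e-05). In gCTRL cells the change was −1.42 ± 0.50 (adjusted p = 0.038).

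Of the ends in coding exons, LSG1, from the gene of a GTPase needed to mature the large ribosomal subunit, was called lower in LM2 nuclei (77.1, 83.6 and 79.0% in cytoplasm, 47.7, 61.3 and 56.3% in nuclei; −1.70 ± 0.39, adjusted p = 0.0058). It was also called in gCTRL nuclei (−1.85 ± 0.38, adjusted p = 0.0017). AP3D1, from the gene of an adaptor subunit of vesicle transport, was lower in Par and LM2 nuclei (−1.34 ± 0.38 and −1.25 ± 0.37, adjusted p = 0.043 and 0.021); the call in Par was lost in 12 alternatives and held in 4, with adjusted p up to 0.23. PHAX, from the gene of the export adaptor of small nuclear RNAs, went the other way: its end in coding exon 4 of PHAX-201 took 8.01, 10.7 and 6.57% in Par cytoplasm and 32.6, 27.8 and 14.9% in nuclei (1.89 ± 0.49, adjusted p = 0.034).

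Ends within introns of the partner also moved both ways. NFATC3, from the gene of a transcription factor of activated lymphocytes, rose from 75.8, 75.4 and 77.9% in LM2 cytoplasm to 88.6, 93.9 and 90.9% in nuclei (1.64 ± 0.37, adjusted p = 0.0054), while in Par cells it was at 82.4 ± 4.29% and 81.6 ± 0.396%. The difference between those 2 effects was not called (adjusted p = 0.46). RPS7, a ribosomal protein gene, had an end in intron 4 of RPS7-212 at 0.334, 0.778 and 0.337% in gCTRL cytoplasm and 3.39, 6.06 and 2.12% in nuclei (3.07 ± 0.50, adjusted p = 1.7e-04). In gHNRNPC cells it was called too (2.67 ± 0.53, adjusted p = 0.0014). PAFAH1B2, from the gene of a subunit of an acetylhydrolase of platelet-activating factor, had an end in intron 4 of PAFAH1B2-204. In LM2 cells this end fell from 12.9, 6.97 and 4.50% in cytoplasm to 0.226, 2.13 and 0.496% in nuclei (−3.51 ± 0.74, adjusted p = 0.0036). MLLT6 rose in gCTRL and gHNRNPC nuclei (1.52 ± 0.51 and 3.26 ± 0.58, adjusted p = 0.029 and 4.5e-04), with the uncertainty of its reads given above.

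Among the other called ends, LIN52 was at 80.8, 85.2 and 77.6% in gCTRL cytoplasm and 98.9, 98.9 and 97.3% in nuclei (3.86 ± 0.50), again with uncertain reads. NCL, the nucleolin gene, was higher in LM2 nuclei (59.0, 58.1 and 63.6% against 91.2, 73.7 and 87.7%; 1.95 ± 0.51, adjusted p = 0.011), as was UBXN6 (1.33 ± 0.42). TXNDC15 was higher in gCTRL nuclei (2.64 ± 0.81), from 3.09 ± 2.75 to 17.6 ± 2.70%. Called lower were RAD54L2 and SMC4-205, from the gene of a condensin subunit, in LM2 (−3.16 ± 0.66 and −2.93 ± 0.58), ISY1 (a spliceosome-associated factor) and THOC2 (a subunit of the THO export complex) in gCTRL (−1.90 ± 0.48 and −1.43 ± 0.34). The TXNDC15 call was lost in 6 alternatives and held in 9, and with limma and a pseudocount of 5 its change was 0.05 (adjusted p = 0.93, the largest of its alternatives). PHAX and UBXN6 in LM2 lost theirs in 5 and held in 10. In gHNRNPC cells RPL9 and BTN3A2 were called higher (1.88 ± 0.47 and 1.49 ± 0.44) and GALNT10 lower (−1.19 ± 0.35). GALNT10 lost its call in 7 alternatives and held it in 8, BTN3A2 lost it in 5 and held it in 9, and RPL9 lost it in 2 and held it in 13.

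**Figure D4:**
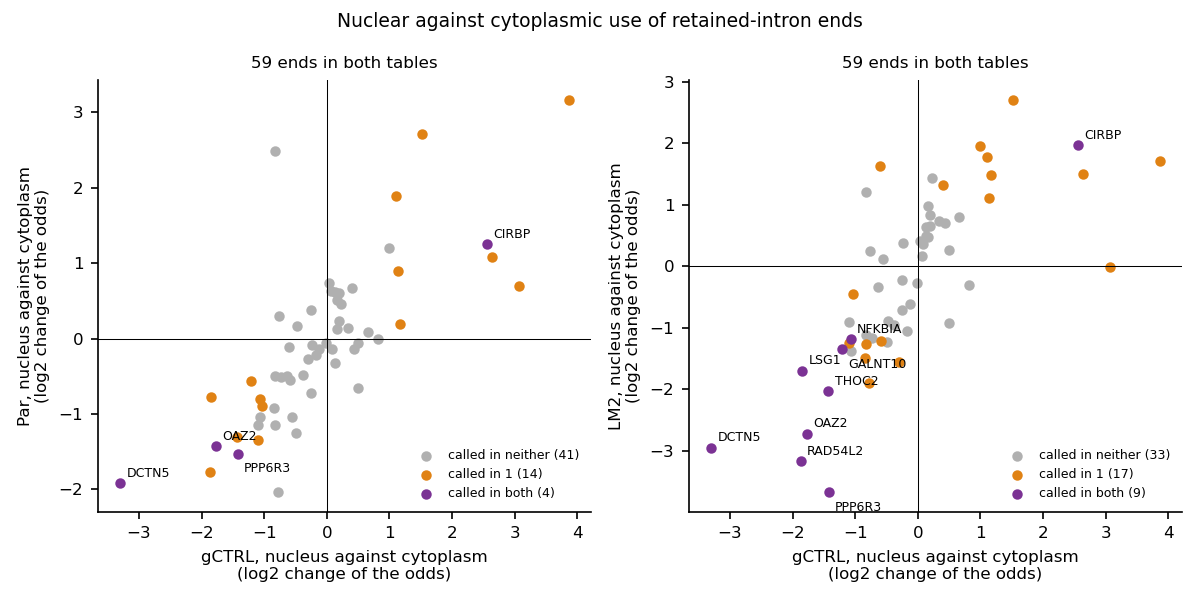
Log2 change of the odds of an end in the nucleus against the cytoplasm in gCTRL cells (x axis) and in Par (left) or LM2 cells (right, y axis) for the 59 ends that were members in both tables, which share no library. Most points lie in the lower left and upper right corners, and the 4 and 9 ends called in both panels' comparisons, named beside their points, each moved in 1 direction.

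Across the 59 ends that were members in both tables, the fraction change in Par and in gCTRL cells correlated with Pearson r = 0.76 and Spearman rho = 0.79, and in LM2 and gCTRL cells with r = 0.74 and rho = 0.81. This is a description across ends measured in separate libraries. In Par 6 of these ends were called and in gCTRL 16, with 4 in both (CIRBP, DCTN5, OAZ2 and PPP6R3), each in the same direction. In LM2 19 were called, 9 of them also in gCTRL and in the same direction: those 4 and GALNT10, LSG1, NFKBIA, RAD54L2 and THOC2.

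After HNRNPC knockdown, 2 members rose and 7 fell in cytoplasm, where 11.1% of all ends were called, 5.62% higher and 5.48% lower. In nuclei 1 rose and 3 fell, against 2.81% of all ends (1.48% higher, 1.33% lower). The libraries of the groups did not overlap for 22 and 11 members, where this held for 33.2 and 19.8% of all ends. No member was called for the difference of the knockdown effects between fractions (0.0% of all ends), and DESeq2 called 0. For this difference 6 of 78 members and 189 of all 2774 ends had an unadjusted p under 0.05. In cytoplasm the median change of the 78 members was −0.35, with 57 below 0, against −0.01 over all 2774 ends, a value held near 0 because a gain at 1 end of a gene is a loss at the others. The medians were −0.25 for position entries (694 of 1124 below 0), −0.18 for nonsense_mediated_decay and −0.11 for processed_transcript entries, and 0.27 for protein_coding entries, so other classes lay on the same side as the members. Of the 27 shared ends 7 were called, with a median of −0.55, and of the 51 ends apart 2, with a median of −0.24. In nuclei the median was −0.04. Without gCTRL cytoplasmic library 1, or gHNRNPC cytoplasmic library 2 or 3, 5 ends were called in cytoplasm. Without nuclear library 2 of gCTRL or of gHNRNPC none was called in nuclei, without gCTRL nuclear library 3, 1, and without gHNRNPC nuclear library 1, 2. The gCTRL libraries also serve as one side of the fraction comparison above.

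The CIRBP end rose in cytoplasm from 11.2, 14.1 and 10.6% of the gene's reads in gCTRL to 37.2, 34.3 and 33.3% in gHNRNPC. No knockdown library came near a control (1.99 ± 0.28, adjusted p = 1.1e-04). Its own level was 36.4 ± 6.31 CPM in gCTRL and 77.3 ± 6.75 CPM in gHNRNPC, and the other ends of CIRBP were at 268 and 144 CPM. In nuclei the shares were 40.0, 46.0 and 46.6% against 55.1, 48.7 and 55.2%, and the change was not called (0.51 ± 0.28, adjusted p = 0.41). The difference of the 2 effects was not called either (−1.48 ± 0.39, adjusted p = 0.48). With a minimum mean of 50 reads, which tests fewer ends, the same edgeR test called it (−1.48, adjusted p = 0.046).

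PRMT2 encodes a protein arginine methyltransferase. Its end in intron 8, printed above, rose in both fractions: from 2.42, 2.28 and 1.96% to 7.37, 8.90 and 10.96% in cytoplasm (2.13 ± 0.39, adjusted p = 0.0016), and from 3.68, 2.20 and 1.65% to 8.33, 16.7 and 6.47% in nuclei (2.07 ± 0.48, adjusted p = 0.020). The groups did not overlap in either fraction. The end itself was at 6.05 ± 0.916 CPM in gCTRL and 15.3 ± 2.62 CPM in gHNRNPC cytoplasm. It was the member called higher in both fractions, and it lies in no exon of a protein-coding transcript of the gene.

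OAZ2 fell in both fractions. Its end was at 67.9, 75.1 and 67.9% in gCTRL and 48.5, 37.4 and 44.4% in gHNRNPC cytoplasm (−1.63 ± 0.28, adjusted p = 0.0012). In nuclei it was at 36.1, 47.1 and 39.8% against 22.1, 19.7 and 22.9% (−1.33 ± 0.32, adjusted p = 0.024). In neither fraction did a knockdown library reach a control.

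SRSF10 encodes a splicing factor of the SR family. Its end fell in cytoplasm from 53.3, 61.9 and 46.4% to 27.6, 19.8 and 28.5% (−1.80 ± 0.40, adjusted p = 0.0058), and in nuclei it was at 47.3 ± 3.52% and 43.4 ± 15.4%. THOC2 fell in cytoplasm from 34.7, 31.2 and 24.1% to 15.6, 14.6 and 14.7% (−1.27 ± 0.36, adjusted p = 0.025). TRMT2A, which encodes a tRNA methyltransferase, fell from 85.7, 90.0 and 89.7% to 60.3, 74.7 and 75.4% (−1.70 ± 0.53, adjusted p = 0.043); this call was lost in 10 alternatives and held in 4, with adjusted p up to 0.13. The end of ZNF276, a zinc finger gene, fell from 66.7, 93.8 and 80.6% to 33.3, 51.5 and 43.2% (−2.45 ± 0.59, adjusted p = 0.011); it lies under FANCA on the opposite strand. RPL9 was also called, though its share was 99.61 ± 0.190% in gCTRL and 98.98 ± 0.0993% in gHNRNPC. This RPL9 call was lost in 7 alternatives and held in 8. In nuclei ROBO4, from the gene of a Roundabout receptor, fell from 22.5, 28.8 and 32.7% to 10.2, 9.57 and 11.6% (−1.71 ± 0.38, adjusted p = 0.014). In nuclei the OAZ2 call was lost in 9 alternatives and held in 7, that of ROBO4 in 6 and 8, and that of PRMT2 in 4 and 11.

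**Figure D5:**
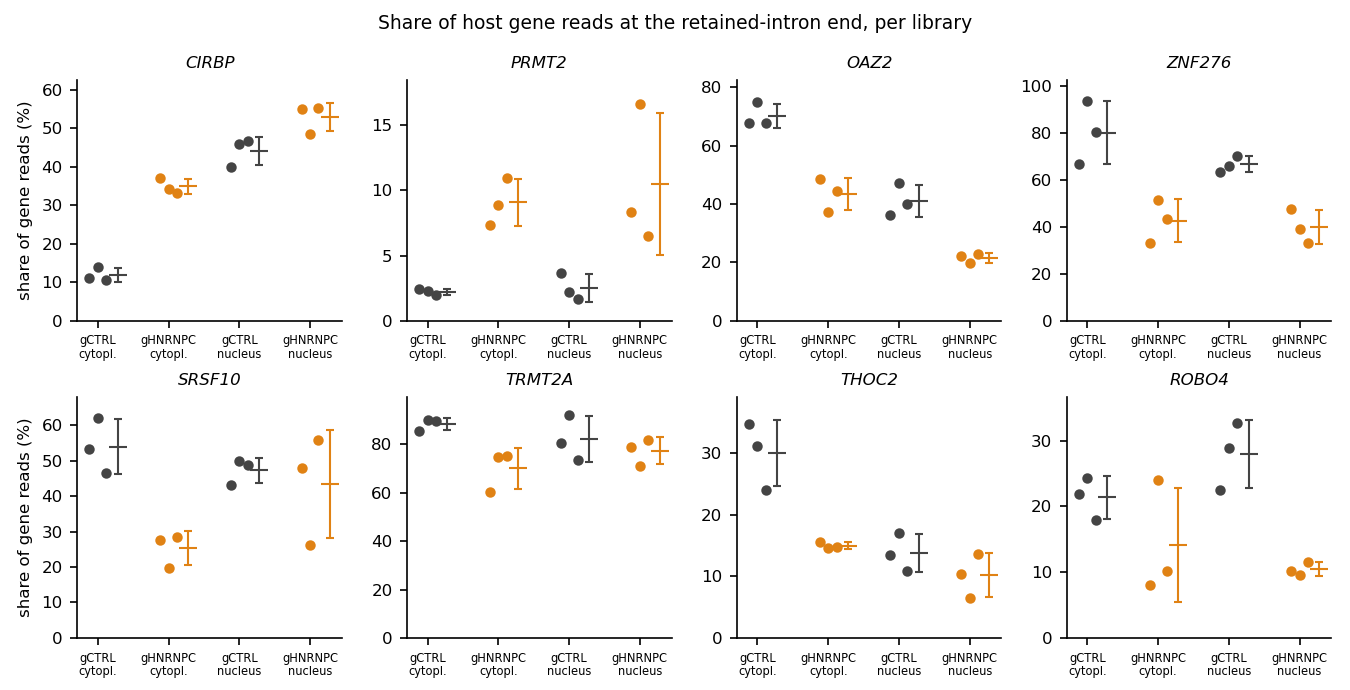
Share of host gene reads at 8 retained-intron ends in each library of the knockdown table (points), with the group mean and SD beside them, for gCTRL (grey) and gHNRNPC (orange) in cytoplasm and nucleus; each panel has its own axis from 0. CIRBP in cytoplasm and PRMT2 in both fractions are higher after knockdown, and OAZ2 is lower in both.

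Between LM2 and Par cells no member was called in cytoplasm (0.0% of all ends), in nuclei (0.0%) or for the difference of the fraction effects (0.0%). Unadjusted p-values under 0.05 were found for 8, 2 and 3 of the 65 members, and for 476, 116 and 179 of all 2514 ends. In cytoplasm 43 of 65 members were higher in LM2 and the median was 0.28. The median was 0.20 for nonsense_mediated_decay entries (69 of 113 higher), 0.18 for processed_transcript entries (47 of 77) and 0.07 for position entries (569 of 1055). It was −0.13 for protein_coding entries, so other classes lay on the same side as the members. For 25 members the LM2 and Par libraries did not overlap, as for 35.6% of all ends. In nuclei they did not overlap for 5 members, as for 7.8% of all ends. With DESeq2 in place of edgeR 3 were called higher in cytoplasm (LSG1, PPP6R3 and DCTN5) and 0 in the other 2 comparisons, and when only the 2 cytoplasmic groups were fitted, 12 were called (9 higher, 3 lower). Without Par cytoplasmic library 3, 2 were called, and without the nuclear libraries numbered 2, 6 (5 higher, 1 lower). The shares of all ends called in these alternative fits are not given here, so these counts cannot be set against all ends.

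The members named here for this comparison were chosen after their values were seen. The PPP6R3 end was at 33.7, 31.9 and 26.1% in LM2 and 9.47, 9.60 and 11.8% in Par cytoplasm, the lowest LM2 library being above the highest Par one (1.95 ± 0.39, adjusted p = 0.059). DCTN5 was at 91.5, 96.0 and 96.6% against 87.0, 83.8 and 88.0% (1.57 ± 0.49, adjusted p = 0.12), and LSG1 at 77.1, 83.6 and 79.0% against 58.5, 55.8 and 72.4% (1.26 ± 0.39, adjusted p = 0.12). SRSF4, another SR protein gene, had the opposite order, with 18.3, 18.9 and 17.4% in LM2 and 39.0, 39.9 and 37.4% in Par (−1.51 ± 0.54, adjusted p = 0.15). None of these 4 passed the threshold. The 3 higher ones were among the ends called lower in LM2 nuclei against LM2 cytoplasm, a comparison that shares the LM2 cytoplasmic libraries.

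For T4 no member was called at 6 h, where 5.94% of all ends were (2.84% higher, 3.1% lower), at 24 h, where 1.84% were (0.947% higher, 0.894% lower), or at 72 h (0.0% of all ends). The T4 and DMSO libraries did not overlap for 11, 15 and 7 members, where this held for 27.5, 31.1 and 11.3% of all ends. Unadjusted p-values under 0.05 were found for 6, 9 and 2 of the 50 members, and for 361, 349 and 71 of all 1901 ends. DESeq2 called 0, 1 (DCAF11, lower) and 0. At 24 h, 38 of 50 ends were higher with T4 and the median was 0.33. It was 0.30 for processed_transcript entries (38 of 58 higher), 0.17 for position entries (466 of 815) and 0.06 for nonsense_mediated_decay entries (39 of 68). For protein_coding entries it was −0.16. The medians of the members at 6 h and 72 h were 0.17 and −0.02. Fitting only the 2 groups at 24 h gave 5 calls (3 higher, 2 lower), and leaving out T4 library 3 at 24 h gave 1 (GALNT10, higher). The shares of all ends called in these other fits are not given here, so they cannot be compared with the 1.84% of the main fit. Summed over all members, the share at 24 h was 46.4, 49.3 and 46.7% with T4 and 48.1, 48.9 and 46.0% with DMSO, which overlapped. Ends apart from protein-coding ends, summed, held 29.8, 28.96 and 29.3% of host reads with T4 at 24 h and 27.2, 26.3 and 26.9% with DMSO, with no overlap. At 6 h the order was the reverse, 23.8, 24.6 and 26.3% against 28.2, 28.4 and 27.4%, but the median share over ends apart was higher with T4 there (35.8 ± 2.19 against 31.9 ± 1.36%). At 72 h the summed share of ends apart was 27.8, 26.2 and 25.9% with T4 against 24.8, 25.9 and 25.4% with DMSO. The median share over ends apart was then lower with T4, at 33.9, 30.7 and 31.25% against 34.7, 34.5 and 34.2%.

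T4 library 3 at 6 h stood apart from its group. The RPS7 intron end was at 1.04, 1.28 and 19.0% in the 3 T4 libraries and 0.904, 1.01 and 0.796% with DMSO, and the CIRBP end at 8.39, 7.55 and 19.1% against 13.9, 20.1 and 21.6%. Without that library CIRBP was called lower with T4 (−1.40, adjusted p = 0.027), against −1.02 ± 0.40 (adjusted p = 0.15) with it. The members given next were also chosen after their values were seen. DCAF11, from the gene of a ubiquitin ligase receptor, whose end is also covered by AL136295.3, was at 55.2, 59.5 and 56.9% with T4 at 24 h and 77.9, 78.6 and 84.1% with DMSO (−1.59 ± 0.49, adjusted p = 0.083). NFKBIA, which encodes the inhibitor of NF-kappa-B, was at 39.6, 43.2 and 47.2% against 31.8, 28.5 and 30.6% at 6 h (0.77 ± 0.29, adjusted p = 0.13). At 24 h it was at 46.7, 42.8 and 38.6% against 31.3, 30.6 and 33.5% (0.67 ± 0.28, adjusted p = 0.21), and at 72 h at 33.9, 30.7 and 29.9% against 35.4, 32.8 and 33.3%. The libraries did not overlap at 6 and 24 h, and none of these differences passed the threshold in the main test. With a minimum mean of 50 reads, the same edgeR test called NFKBIA higher at 6 h (0.77, adjusted p = 0.034).

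Few host genes belonged to the lists drawn up for genes often named with retained introns. The list of SR protein genes gave SRSF10 and SRSF4, that of ribosomal protein genes RPS7 and RPL9, and that of small nucleolar RNA hosts NCL. None of the other 5 lists (hnRNP genes, genes known for detained introns, aminoacyl-tRNA synthetases, cleavage and polyadenylation factors, stress response genes) had a member in any table. The values and calls of these 5 genes are those given above.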

How the data were processed

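The authors deposited 3 tables of expected counts per transcript end or position. Salmon 0.14.1 and hg38 are named in the submitters' processing notes; filters and strand settings are not given in the sources used here. Estimated counts were rounded to whole reads. Of 71604 transcript entries 66115 matched GENCODE 29 (GRCh38), which gives class, position and sequence. The 23320 position entries went to the gene of the transcript listed above them.

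Entries with a mean of at least 10 reads, in genes with at least 10 elsewhere, were tested with edgeR 4.0.16 (robust quasi-likelihood, 2 columns per library, library terms, all groups of a table). In a gene with 2 entries both carry 1 test. DESeq2 1.42.0, limma 3.58.1 (pseudocounts 1 and 5), other filters, comparators and left-out libraries were alternatives. The script was tested on simulated data.

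Named were the 10 most read members, up to 5 called per direction with groups not overlapping, called members of 8 lists, and members at the limit; other genes were named after their values or sequences were seen. Members and lists were chosen with earlier results of these data known. Only for T4 against DMSO at 72 h did all same-numbered libraries correlate above 0.1 (0.258, 0.562 and 0.123). For number 3 a differently numbered pair there reached 0.304, so the numbers do not clearly pair these samples. Values of 1 end are not reported here.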

Additional observations from a re-analysis of the deposited data

How the results depend on the processing

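No called change of an end named by the rules above reversed its direction under an alternative that could be fitted. Summed shares, which were not tested, did where the report says so. The shares of all ends called under the alternatives are not given, so their counts of members cannot be set against all ends. Counts of called ends moved by over 1.5 times as follows. A minimum mean of 50, which tests fewer ends, gave 6, 7, 6, 5 and 2 calls for LM2, gCTRL and gHNRNPC nucleus against cytoplasm and for the knockdown in cytoplasm and nucleus, and 1 each for LM2 against Par cytoplasm, the knockdown difference of fractions and T4 at 6 h. A minimum of 1, which adds ends, gave 3 in Par, 2 for the knockdown in nuclei, and 2 each for T4 at 6 and 24 h. None of these was a call of the main test. Entries of the same annotation version only gave 12, 11 and 7 for LM2, gCTRL and gHNRNPC fractions. Leaving out shared ends, which removes members, gave 3, 14, 10 and 4 for the Par, LM2, gCTRL and gHNRNPC fractions and 2 each for the knockdown in cytoplasm and nucleus. DESeq2 gave 11 in Par, 3 for LM2 against Par cytoplasm and 1 for T4 at 24 h. Limma gave 5 and 2 for the knockdown in cytoplasm and nucleus with a pseudocount of 1, and 1 for LM2 against Par cytoplasm with 5. Protein_coding entries as comparator gave 2 there. Fitting only the groups compared gave 1 in Par, 12 for LM2 against Par cytoplasm and 5 for T4 at 24 h. Without the nuclear libraries numbered 2, chosen after earlier results were known, counts were 18 in Par and 6 for LM2 against Par cytoplasm. Where construction does not show the cause, the cause was not tested. Fits of only the groups compared were not run for the differences of fractions, which use all 4 groups.

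Leaving out single libraries gave 0 to 7 calls for Par, 14 to 24 for LM2, 11 to 19 for gCTRL and 6 to 14 for gHNRNPC nucleus against cytoplasm. It gave 5 to 7 for the knockdown in cytoplasm, 0 to 4 in nuclei, 0 to 2 for LM2 against Par cytoplasm, and 0 to 1 for T4 at 6 h and at 24 h. For LM2 against Par nuclei, T4 at 72 h and both differences of fractions it gave 0.

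With the replicate number as a block, the counts were 5, 23, 17 and 10 for the Par, LM2, gCTRL and gHNRNPC fractions, 6 and 3 for the knockdown in cytoplasm and nucleus, and 0 for the others. For T4 at 72 h, where all same-numbered libraries correlated above 0.1, no member was called with or without the block. Elsewhere at least 1 pair of same-numbered libraries had a correlation of 0.1 or less, among them LM2 and Par nuclei (0.55, 0.69 and 0.07), so no pairing was taken there. With 3 libraries a group and members down to a mean of 10 reads, true changes can have been missed, large ones included.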
